A study of Mus musculus with 66 samples.

Results

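Olfactory receptor genes (Olfr) and the vomeronasal receptor genes of families 1 and 2 (Vmn1r, older name V1r, and Vmn2r) were followed through 7 deposited tables of mouse chromatin regions that differed between an activity condition and its control. They were selected by gene symbol: every gene with a region in any table whose symbol starts with Olfr, Vmn1r, Vmn2r, V1r or V2r was taken. This gave 142 of the 9811 genes named in any table, and 165 of 57678 regions. Of the receptor regions, 160 (137 genes) were in the table of histone turnover, and 5 (5 genes) were in tables of the histone variant H3.3.

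Olfactory receptors detect odorants in the main olfactory epithelium, and vomeronasal receptors detect pheromones in the vomeronasal organ. An olfactory sensory neuron expresses one allele of one olfactory receptor gene, while its other olfactory receptor genes lie in heterochromatin marked by methylated H3 lysine 9. Vomeronasal neurons that use Vmn2r genes can express more than one of them. The genes lie in tandem clusters on many chromosomes, and most olfactory receptors are encoded in one coding exon.

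All samples came from C57bl/6 mice, and no transgene or knockout allele is labelled in the groups used here. Cortical neurons taken at E16.5 and kept for 8 days in vitro were stimulated with isotonic KCl, which depolarises the membrane, or left unstimulated as the control. H3.3 was immunoprecipitated from them after 30 min, 2 hr and 5 hr, and the replication-linked H3.1/2 after 5 hr. Histone turnover was measured at 5 hr by CATCH-IT, in which histones synthesised during a labelling period are captured on streptavidin beads. Hippocampal nuclei of mice about 7 weeks old were sorted into neurons (NeuN+) and other cells (NeuN-), from mice in environmental enrichment or normally housed. The enrichment of the NeuN+ animals lasted 4 weeks. Groups had 3 libraries, except that NeuN+ groups had 2 each and the 30 min control had 4 in the labels and 3 values per region. The labels do not say whether a hippocampal library came from 1 mouse or several.

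Each table lists regions that the authors had already called on these libraries, with a normalised read count for each library of both groups. A region is called gained where the mean of the KCl or enriched libraries is above that of its control, and lost where it is below. Because the tables list called regions, a receptor gene with no region was not shown to be unchanged, and no new test was run. Changes under a log2 difference of 1.59 were not listed in any table. Listing by such a difference favours groups that do not overlap, so non-overlap adds no support to a region. In CATCH-IT the groups did not overlap in 98.8% of all gained and 99.8% of all lost regions. No such share was counted for the other tables. In the CATCH-IT experiment the KCl libraries shared lane 1 and the control libraries lane 5, and in the NeuN- experiment the enriched libraries shared lane 2 and the normally housed ones lane 1. H3.3 libraries were in lane 4 (KCl) and lane 8 (control) at 30 min, and in lane 7 (KCl) and lane 6 (control) at 2 hr. Condition and lane therefore cannot be told apart in any of these experiments. The tables hold no level for genes without a called region, so receptor silence and the identity of the cells could not be checked from them. A CATCH-IT region was listed for 4 of 5 markers of olfactory sensory neurons, 2 of 5 of neurons, 4 of 5 of astrocytes, 3 of 5 of oligodendrocytes, 2 of 5 of microglia and 2 of 3 of endothelial cells. CATCH-IT regions overlapped 41.6% of all annotated coding genes other than receptors. That share counts overlap, whereas the markers were counted by name, and gene length was not matched. Of the olfactory neuron markers 0 had an H3.3 region. In cultured neurons 2 neuron markers and 1 endothelial marker had one at 30 min. At 2 hr and at 5 hr 1 astrocyte marker had one, and 0 neuron markers did.

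The 5 receptor regions of the H3.3 tables are printed first, since they are all that these tables hold on the families. Sequences are mm9 (NCBIM37), 5′ to 3′ on the strand of the receptor gene, and capitals mark bases inside the annotated coding exon. The NeuN+ regions at Olfr1104 (chr2:86861901-86862180, minus strand) and Olfr446 (chr6:42877761-42877960, plus strand) lay wholly within coding sequence. The NeuN- regions at Olfr1053 (chr2:86153381-86153600, minus strand), Vmn1r46 (chr6:89925801-89926000, plus strand) and Olfr644 (chr7:111217761-111217960, minus strand) held no coding base.
Olfr1104: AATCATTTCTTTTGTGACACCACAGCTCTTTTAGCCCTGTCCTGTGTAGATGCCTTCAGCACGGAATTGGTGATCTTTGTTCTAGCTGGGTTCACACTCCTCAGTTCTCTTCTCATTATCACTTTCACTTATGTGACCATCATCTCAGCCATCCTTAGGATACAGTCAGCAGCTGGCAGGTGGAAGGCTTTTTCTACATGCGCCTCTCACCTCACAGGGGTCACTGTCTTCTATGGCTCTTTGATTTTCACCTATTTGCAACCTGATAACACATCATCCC
Olfr446: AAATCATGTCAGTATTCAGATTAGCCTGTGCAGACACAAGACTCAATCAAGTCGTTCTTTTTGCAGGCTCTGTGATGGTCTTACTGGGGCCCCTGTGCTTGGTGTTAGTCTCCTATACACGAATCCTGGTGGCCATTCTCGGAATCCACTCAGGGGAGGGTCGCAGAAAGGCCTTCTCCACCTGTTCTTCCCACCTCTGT
Olfr1053: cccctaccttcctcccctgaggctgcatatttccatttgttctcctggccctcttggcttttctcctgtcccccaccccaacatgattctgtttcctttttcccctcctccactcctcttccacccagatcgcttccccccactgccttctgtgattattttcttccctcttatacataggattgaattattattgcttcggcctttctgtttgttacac
Vmn1r46: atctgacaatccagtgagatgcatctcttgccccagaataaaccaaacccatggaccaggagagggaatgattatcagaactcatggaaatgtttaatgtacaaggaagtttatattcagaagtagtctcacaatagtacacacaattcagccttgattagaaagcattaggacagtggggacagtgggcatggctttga
Olfr644: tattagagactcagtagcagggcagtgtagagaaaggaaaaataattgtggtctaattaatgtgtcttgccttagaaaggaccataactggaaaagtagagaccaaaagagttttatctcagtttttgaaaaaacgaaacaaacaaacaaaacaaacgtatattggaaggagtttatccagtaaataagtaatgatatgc
The CATCH-IT regions nearest to a gene start are shown by the 60 bases on either side of the start of Olfr676 (chr7:112183654-112183773, plus strand) and Olfr1111 (chr2:86990757-86990876, minus strand). In both the assigned start is the first base of the ATG codon, so that distances to the start are distances to the coding sequence.
Olfr676: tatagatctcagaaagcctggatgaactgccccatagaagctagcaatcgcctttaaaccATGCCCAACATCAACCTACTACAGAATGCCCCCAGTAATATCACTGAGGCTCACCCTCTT
Olfr1111: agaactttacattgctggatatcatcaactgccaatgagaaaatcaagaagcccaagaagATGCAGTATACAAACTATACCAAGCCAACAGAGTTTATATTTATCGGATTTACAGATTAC

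In NeuN+ hippocampal nuclei both receptor regions gained H3.3 with enrichment, and both lay inside single-exon olfactory receptor genes, beyond the middle of the reading frame. At Olfr1104 the normalised read counts were 23.55 and 29.97 in enriched libraries, against 7.53 and 6.16 in normally housed libraries. Olfr446 had 18.05 and 19.69 in enriched libraries, against 6.02 and 4.11 in normally housed ones. In both regions the lower enriched library was above the higher normally housed one. Means were 26.76 ± 4.54 and 6.85 ± 0.97 at Olfr1104, and 18.87 ± 1.16 and 5.06 ± 1.35 at Olfr446, for enriched and normally housed libraries (SD, n = 2 each). The authors' deposited table gives log2 fold changes of 1.97 for Olfr1104 and 1.9 for Olfr446, with adjusted p of 0.0278 and 0.0368. Of all 1642 regions listed for NeuN+ nuclei, 97.8% had an adjusted p of 0.05 or less and 71.8% were gained, so neither the direction nor the adjusted p sets the 2 receptor regions apart. Enriched libraries were in lanes 6 and 7 and normally housed ones in lanes 3 and 5, so lane and housing cannot be told apart here either. In the authors' deposited table the ratio to input was 1.65 in enriched against 0.58 in normally housed nuclei at Olfr1104. At Olfr446 that ratio was 2.64 in enriched against 0.77 in normally housed nuclei. For Olfr1104 100.0% of the region's 32-base words occurred once in mm9, and for Olfr446 87.6% did, the remainder having up to 3 copies.

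In NeuN- nuclei 3 receptor regions were listed, 2 lost and 1 gained with enrichment, against 70.7% gained among all 1196 listed regions. The values were low in every library. Olfr1053 had 0, 0 and 0.54 in enriched libraries, against 7.58, 6.76 and 5.43 in normally housed libraries, which is 0, 0 and 1 read against 8, 10 and 6 reads. Olfr644 had 0, 0 and 0.54 in enriched libraries, against 5.69, 6.08 and 5.43 in normally housed libraries, which is 0, 0 and 1 read against 6, 9 and 6 reads. Enriched and normally housed libraries did not overlap at either gene, which the listing of called regions favours. The pheromone receptor gene Vmn1r46 went the other way. It had 8.14, 5.28 and 4.88 in enriched libraries, against 0, 1.35 and 0.90 in normally housed libraries. In reads these are 7, 2 and 9 in enriched libraries against 0, 2 and 1 in normally housed ones, so the second enriched and the second normally housed library held the same number of reads and differed by their scaling. The authors' deposited table gives log2 fold changes of -5.19 for Olfr1053, -4.99 for Olfr644 and 3.02 for Vmn1r46, with adjusted p of 0.00415, 0.00609 and 0.00776. Of all regions listed for NeuN- nuclei 99.8% had an adjusted p of 0.05 or less. Measured from the gene start, the middle of the Olfr1053 region lay at -1010 bp, that of Vmn1r46 at -265 bp, and that of Olfr644 at 1261 bp, past the end of the gene. Titles of the NeuN- libraries carry the mark rmdup, and those of the CATCH-IT and NeuN+ libraries do not. Of the 5 neuron markers, 0 had a region in either nuclear fraction. Of the markers of other cell types, 2 of 5 for astrocytes and 1 of 5 for oligodendrocytes had a gained region in NeuN+ nuclei, and 1 of 5 for astrocytes a gained and 1 of 5 for microglia a lost region in NeuN- nuclei. Their part in the receptor regions was not tested. All 5 H3.3 receptor regions carried a promoter label, although 2 lay upstream of the gene, 2 inside it and 1 past its end.

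**Figure D1:**
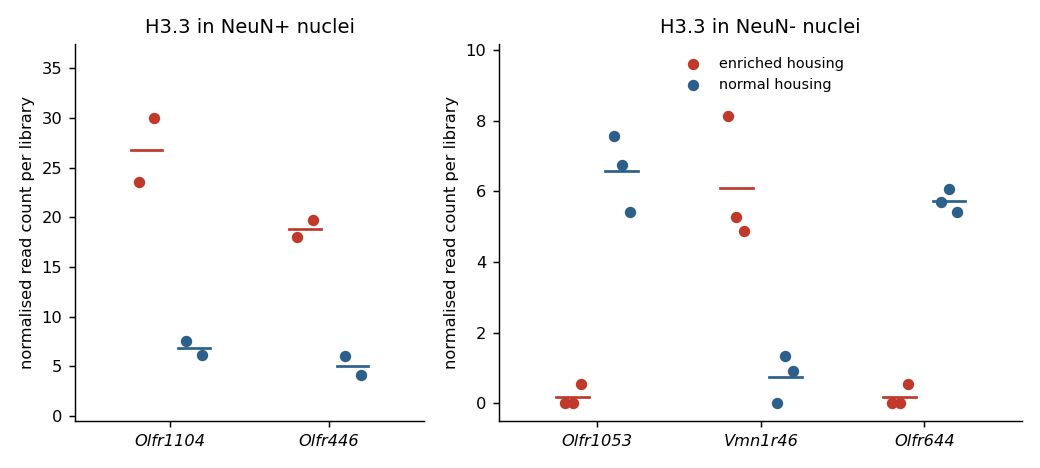
Normalised read count of each library (y axis) in the 5 receptor regions of the H3.3 tables, NeuN+ nuclei on the left (n = 2 libraries per group) and NeuN- nuclei on the right (n = 3), with enriched housing left of normal housing and short lines at the means. Enriched libraries are all higher at Olfr1104, Olfr446 and Vmn1r46 and all lower at Olfr1053 and Olfr644.

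No H3.3 region named for a receptor gene was listed in cultured neurons at 30 min (0 of 457), 2 hr (0 of 689) or 5 hr (0 of 667), and none was listed for H3.1/2 (0 of 7). A gene name misses regions between genes, so the receptor clusters themselves were also scanned. The mm9 annotation (GENCODE vM1) held 1691 receptor genes, of which 1251 were Olfr, 260 Vmn1r and 180 Vmn2r. Joining genes that start within 1 Mb of the next gave 42 clusters of 5 or more genes, with 1639 genes over 63.5 Mb, which is 2.48% of the assembled bases of chromosomes 1 to 19 and X. Within these spans lay 2 H3.3 regions at 30 min, 4 at 2 hr and 6 at 5 hr, or 0.438%, 0.581% and 0.900% of each list. In the authors' deposited table the 6 at 5 hr had an adjusted p of 0.0863 to 0.11. Those at 30 min and 2 hr had 0.0395 or less. Among these cluster regions 0, 2 and 1 were gained at 30 min, 2 hr and 5 hr. That is 0%, 50.0% and 16.7%, against 20.1%, 14.4% and 44.2% of all regions listed at those times. The counts are small, and 0 of the cluster regions lay within 5 kb of a receptor gene. The nearest to one was a gained region at 2 hr, chr7:115501161-115501360, 9644 bp from Olfr494. It had 11.03, 9.85 and 10.89 in KCl libraries, against 2.04, 4.17 and 1.23 in control libraries.

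The H3.1/2 table had 1 region in a receptor cluster, at chr17:18360061-18360260, 20274 bp from Vmn2r94. It was lower after KCl, with 12.76, 3.21 and 9.57 in KCl libraries against 32.29, 21.39 and 23.76 in control libraries, and the groups did not overlap. The authors' deposited table gives it an adjusted p of 0.126.

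In the hippocampus more H3.3 regions lay inside receptor clusters than carried a receptor name. For NeuN+ nuclei there were 15, of which 13 were gained (86.7%, against 71.8% of all listed). For NeuN- nuclei there were 25, or 2.09% of the list, of which 20 were gained (80.0%, against 70.7%). Setting aside those named for a receptor, 12 of 22 NeuN- regions and 3 of 13 NeuN+ regions lay within 5 kb of an annotated receptor gene, 11 and 3 of them gained. The part of the clusters lying within 5 kb of a receptor gene was not measured. The counts therefore do not show that regions gather near the genes. The region 1179 bp from Olfr301 (NeuN+) had 21.19 and 23.12 in enriched libraries, against 4.52 and 6.16 in normally housed libraries. The NeuN- region 1125 bp from Olfr1431 had 12.80, 5.28 and 4.88 in enriched libraries, against 0.95, 1.35 and 0.90 in normally housed libraries. Both had groups that did not overlap, which the listing of called regions favours.

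A pair of gained NeuN- regions overlapped annotated Vmn2r genes but had been named for overlapping clone-based genes. The one at Vmn2r102 (chr17:19814801-19815000) had 6.98, 5.28 and 4.88 in enriched libraries, against 0.95, 0.68 and 0 in normally housed ones. The one at Vmn2r78 (chr7:94093161-94093400) had 8.14, 5.28 and 4.88 in enriched libraries, against 0, 0.68 and 0.90 in normally housed ones. The repeated second value of 5.28 is 2 reads. It was the second enriched value in 13 of the 20 gained cluster regions (65.0%), against 46.8% of all 846 gained NeuN- regions. These regions thus rest on few reads in that library, and the part of this in the result was not tested.

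CATCH-IT listed 160 receptor regions after 5 hr of KCl, 87 gained and 73 lost. The gained share was 54.4%, near the 57.3% gained among all 53020 listed regions, and so the receptors did not stand apart from the table by direction. Olfactory receptors had 54 gained and 53 lost regions over 98 genes. Vmn2r genes had 29 gained and 16 lost over 31 genes, and Vmn1r genes 4 gained and 4 lost over 8 genes. The Vmn2r counts include 7 gained and 3 lost regions assigned to Vmn2r99, which are described below. By gene, 70 had gained regions only, 58 had lost regions only, and 9 had both.

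The pattern in the libraries was close to presence against absence. In every gained receptor region all 3 KCl libraries had reads, and in 81 of 87 (93.1%, against 96.5% of all gained regions) all 3 control libraries were at 0. In all 73 lost regions the 3 KCl libraries were at 0, against 99.4% of all lost regions. Since a group at 0 gives no finite fold change, levels are given in place of folds. Mean normalised counts in KCl libraries of gained regions ran from 3.13 to 33.39 with a median of 6.47, and mean counts in control libraries of lost regions ran from 5.69 to 10.4 with a median of 7.00. The libraries of the higher group together held a median of 18 reads in gained and 21 in lost regions, so each region rests on few reads.

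Among the gained regions with the smallest adjusted p, Olfr661 had the highest mean. It had 25.38, 4.79 and 13.59 in KCl libraries, against 0, 0 and 0 in control libraries, in a region whose middle was 610.5 bp downstream of the gene start. Olfr1280 had 26.72, 1.60 and 10.87 in KCl libraries, against 0 in all control libraries, at -2876.5 bp from its start. Olfr1394 had 10.69, 6.92 and 19.03 in KCl libraries, against 0 in all control libraries, at -2336.5 bp. KCl libraries were uneven within each region, the first being highest at Olfr661 and Olfr1280 and the third at Olfr1394. The other genes of this rank were Olfr1359, Vmn2r15, Vmn2r53, Olfr447, Olfr868, Olfr1412 and Olfr1489, with KCl means of 9.47 to 11.89 and control libraries at 0. All 10 had an adjusted p of 4.15e-07 in the authors' deposited table.

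The highest means were at genes further down by adjusted p, which are named here after their values were seen. Olfr1265 had 16.03, 5.33 and 78.82 in KCl libraries, against 0 in all control libraries. Olfr558 had 16.03, 5.86 and 67.95 in KCl libraries, against 1.89, 0 and 0 in control libraries. Vmn2r90 had 16.03, 10.12 and 57.08 in KCl libraries, against 1.89, 0 and 0 in control libraries. In each the third KCl library carried most of the mean (33.39 ± 39.7, 29.95 ± 33.3 and 27.74 ± 25.58, SD, n = 3). One read counted 0.53 in the second and 2.72 in the third KCl library. In reads Olfr1265 had 12, 10 and 29 and Vmn2r90 had 12, 19 and 21, so part of this unevenness is scaling.

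Of the lost regions, Olfr828 had the smallest adjusted p (1.1e-06 in the authors' deposited table). It had 0 in all KCl libraries, against 3.16, 13.86 and 14.19 in control libraries, past the end of the gene. Vmn2r2, a class-C pheromone receptor gene like other Vmn2r, had 0 in all KCl libraries, against 0.32, 24.95 and 2.37 in control libraries. Olfr608 had 0 in all KCl libraries, against 1.89, 4.16 and 21.29 in control libraries. A single control library carried most of the signal at Vmn2r2 and at Olfr608. The others of this rank were Vmn2r99, Olfr1079, Olfr1126, Olfr25, Olfr30, Olfr522 and Olfr381, with control means of 9.12 to 10.15 and KCl libraries at 0.

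The 10 promoter regions with the smallest adjusted p were all gained, while all receptor promoter regions were 61 gained and 58 lost. Over the whole table the authors' adjusted p was smaller in gained regions (median 2.46e-06) than in lost ones (7.08e-05), so ranking by it favours gained regions. Of the 10 promoter regions, 9 were also among the gained regions above. The remaining one, Olfr1413, had 8.02, 3.2 and 16.31 in KCl libraries against 0 in all control libraries. Those values are 6, 6 and 6 reads, and V1ri1 (now Vmn1r192), Vmn2r79 and Vmn2r92 had regions with the same 3 values. Across the 160 regions, only 116 value profiles were distinct, and 72 regions shared a profile with another. Olfr1131, Olfr1507, Olfr653, Olfr75-ps1 and V1rc16 (now Vmn1r17) had 0 in all KCl libraries against 1.89, 8.32 and 7.10 in control libraries, which is 6 reads in each control.

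Reads piled up at 6 and at 12. In lost receptor regions the third control library held exactly 12 reads (14.19) in 53 of 73, or 72.6%, against 67.6% of all lost regions in the table. In gained receptor regions the first KCl library held 6 reads in 17 of 87 (19.5%) and 12 reads in 8 (9.2%). Over all gained regions these shares were 21.8% and 6.01%. The second KCl library held 6 reads in 16 (18.4%) and 12 reads in 12 (13.8%), against 20.2% and 23.2% of all gained regions. The name of the CATCH-IT table carries a duplicate setting of 6. Where the highest library of a region was at 6 or 12 reads, 32 of 99 receptor regions were gained (32.3%, against 34.3% of all such regions). Where it was not, 55 of 61 were gained (90.2%, against 90.3% of all such regions). The near-even split of receptor regions thus joined a mostly lost set at these counts and a mostly gained set away from them, as in the table as a whole.

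**Figure D2:**
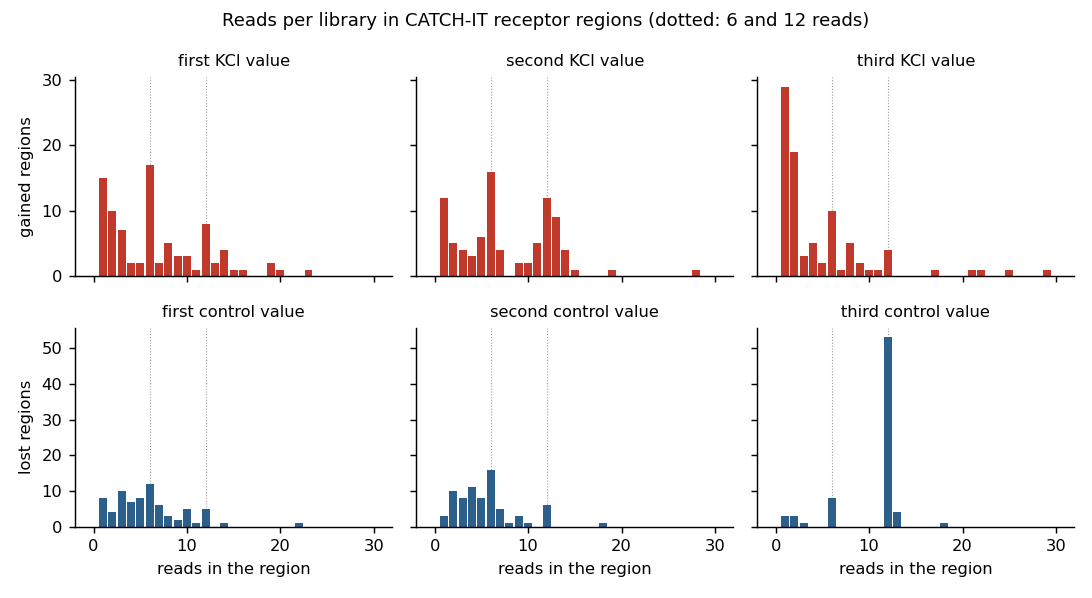
Number of receptor regions (y axis) by the number of reads a library held in the region (x axis), for the 3 KCl values of the 87 gained regions (top) and the 3 control values of the 73 lost regions (bottom), with dotted lines at 6 and 12 reads. The third control value stands at 12 reads in 53 lost regions.

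Receptor regions were found on 17 chromosomes, and 80 of the 160 (50.0%) lay on chromosomes 7, 2 and 17. Chromosome 7 had 32 (17 gained, 15 lost), with olfactory and vomeronasal receptors of all families. Chromosome 2 had 27, all Olfr, 11 gained and 16 lost. Chromosome 17 had 21, of which 17 were Vmn2r, and 15 were gained and 6 lost. Regions assigned to Vmn2r99 made up 7 of the gained and 3 of the lost ones. The gained share was 40.7% on chromosome 2 and 71.4% on chromosome 17, against 57.3% and 57.4% of all listed regions there. On chromosome 6 it was 9 of 11 and on chromosome 9 it was 5 of 14. These counts are small and neighbouring regions are not independent.

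**Figure D3:**
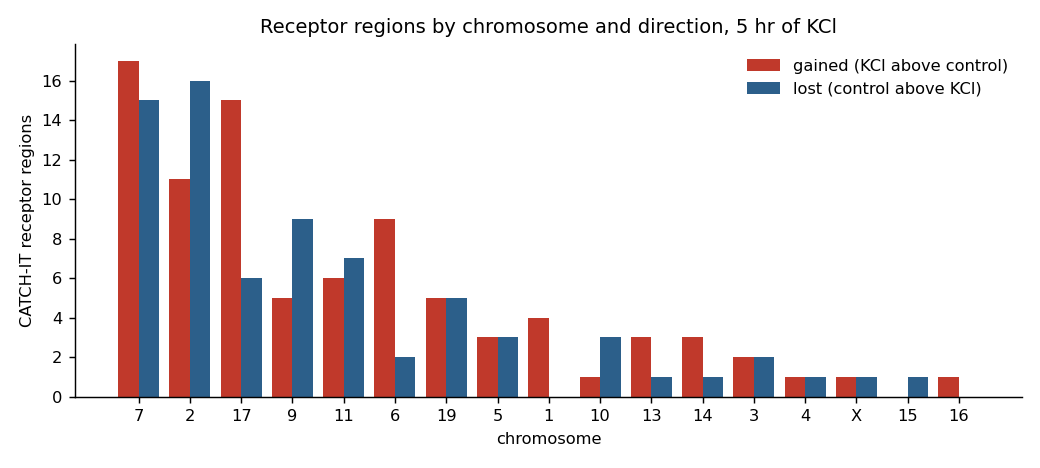
Number of CATCH-IT receptor regions (y axis) on each chromosome (x axis, ordered by total), gained regions to the left of lost regions. Chromosome 7 has 17 gained and 15 lost, chromosome 2 has 11 and 16, and chromosome 17 has 15 and 6.

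Joining regions of any table that start within 1 Mb of the next gave 44 groups. Of these, 13 held 1 region, and 21 of the other 31 held both gained and lost CATCH-IT regions. The 5 largest held 71 of the 165 regions. The largest was on chromosome 2 (chr2:85270421-90122600), with 23 Olfr regions in 22 genes. It had 9 gained and 12 lost CATCH-IT regions and both H3.3 regions at Olfr1053 (lost, NeuN-) and Olfr1104 (gained, NeuN+). The next was on chromosome 17 (chr17:17848961-21397200), with 15 Vmn2r regions and 1 Vmn1r region, 11 gained and 5 lost. It includes the 7 gained and 3 lost regions assigned to Vmn2r99. Then came an Olfr group on chromosome 7 (chr7:109625841-112183920) with 4 gained and 9 lost CATCH-IT regions and the H3.3 region at Olfr644. An Olfr group on chromosome 19 (chr19:12132501-13704920) had 5 gained and 5 lost regions, all labelled promoter, and one on chromosome 9 (chr9:37577361-39750780) had 2 gained and 6 lost.

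Gained and lost regions could lie side by side. Upstream of Olfr1024 a gained region (chr2:85746621-85747000) and a lost one (chr2:85747181-85747520) were 180 bp apart. The gained one had 13.36, 0.53 and 5.44 in KCl libraries, against 0 in all control libraries. The lost one had 0 in all KCl libraries, against 3.16, 6.93 and 14.19 in control libraries. Vmn2r16 had 2 gained and 1 lost region across 29580 bp, and Olfr18 had 2 gained and 1 lost. Olfr75-ps1, a pseudogene by its symbol, had 1 gained and 2 lost. Genes with 2 regions were Olfr1024, Olfr1507, Vmn2r15, Vmn2r2 and Vmn2r79, each with 1 gained and 1 lost, and Olfr1311, Olfr56 and Olfr653, each with 2 lost.

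Vmn2r99 had the most regions, 10, of which 7 were gained and 3 lost. The gene span used by the authors' table was 1117174 bp, and 0 of the 10 regions lay within 3 kb of any receptor gene of the mm9 annotation. They were spread over 652300 bp of chromosome 17. They are therefore regions of the chromosome 17 cluster assigned to that gene rather than regions shown to lie at it. Of the other 150 regions, 148 lay within 3 kb of an annotated receptor gene and 70 overlapped one.

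Promoter labels covered 119 of the 160 regions (74.4%), against 5.12% of all 53020 listed regions and 11.6% of the 23381 with a gene. The label covers distances up to 3 kb from a gene start in either direction, in classes up to 250 bp, 1000 bp and 3000 bp. A gene with a span under 1.2 kb lies wholly within that distance, and 88 of the 137 receptor genes were this short, 0 of them Vmn2r. For these 88 genes the median span over their regions was 942 bp, and 91 of 91 regions were labelled promoter, as were 53 of 53 regions at other genes of that length. For receptor genes of 1.2 to 100 kb the share was 48.3% (28 of 58), against 19.5% of regions at other genes in that range, whose median span was 38578 bp against 20486 bp for the receptors. By family the share was 91.6% for Olfr, 87.5% for Vmn1r and 31.1% for Vmn2r, whose genes have several exons and a median span of 30227 bp. The Vmn2r share includes the 10 regions assigned to Vmn2r99, all labelled gene body. Of the 137 assigned genes, 78 had a span that starts with ATG, ends with a stop codon and has a length divisible by 3. Of these, 62 were Olfr and 12 were Vmn2r. The span includes introns, so for Vmn2r genes its length says nothing on the reading frame. Other genes, such as Olfr1111 (938 bp), start with ATG but miss the other conditions. The 78 is therefore not a count of genes whose assigned start is the start of the coding sequence. Where it is, no transcription start upstream of it was tested.

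Placed by position rather than label, 79 regions overlapped the assigned gene (47 gained, 32 lost), 54 lay upstream (26 gained, 28 lost) and 27 past its end (14 gained, 13 lost). Of the 119 promoter regions 55 had their middle upstream of the start and 64 downstream. The median distance from the start was 1428 bp in gained and 1232 bp in lost promoter regions. In 8 the middle was within 250 bp of the start. The nearest were Olfr676 and Olfr1111, whose starts are printed above. Olfr676, gained, had 1.34, 3.73 and 5.44 in KCl libraries, against 0 in all control libraries. Olfr1111, lost, had 0 in all KCl libraries, against 1.58, 5.54 and 14.19 in control libraries.

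**Figure D4:**
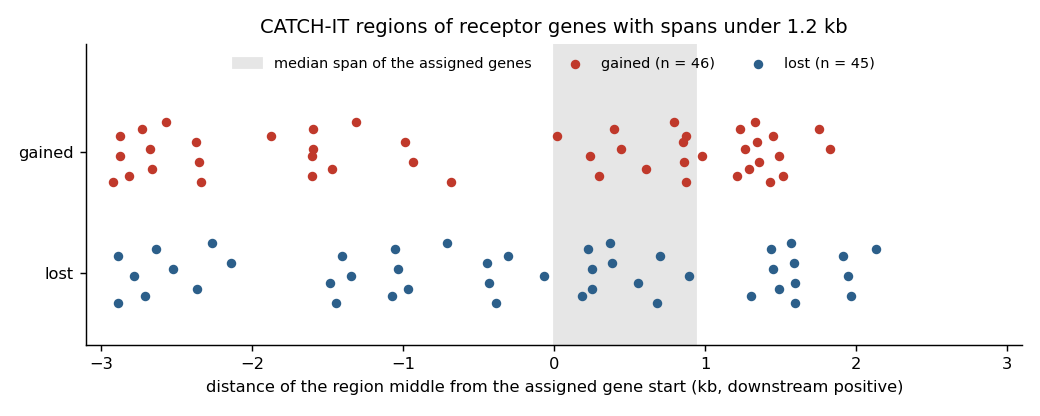
Distance of the middle of each CATCH-IT region from the start of its assigned gene (x axis, kb, downstream positive) for receptor genes with spans under 1.2 kb, gained regions (n = 46) above lost regions (n = 45), with vertical jitter only for display. The grey band is the median gene span (942 bp), and both directions fall upstream, inside and past it.

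Counted over the annotation instead of the tables' names, CATCH-IT regions overlapped 72 of the 1691 receptor genes (4.26%). Among genes annotated as protein-coding the share was 3.68% of 1113 Olfr, 0.971% of 206 Vmn1r and 19.2% of 125 Vmn2r genes. It was 2.19% of 1327 other coding genes under 1.2 kb and 41.6% of 20936 other coding genes of any length. The longer Vmn2r genes thus had a share above that of short genes and below that of coding genes at large. Of the annotated receptor pseudogenes, 0 of 133 Olfr, 0 of 54 Vmn1r and 3 of 52 Vmn2r were overlapped. Some receptor genes were counted as neither coding nor pseudogene and enter only the total of 1691.

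Inside the 42 annotated clusters lay 791 CATCH-IT regions, 154 of them named for receptors, 128 for other genes and 509 between genes. Of the 791, 453 were gained (57.3%), the same share as in the whole table to that precision. There were 12.5 regions per Mb inside the clusters, against 20.9 per Mb outside. Of the 23 clusters with 20 or more genes, 21 had fewer per Mb than the sequence outside. The lowest was a cluster of 80 Vmn1r genes on chromosome 7 (chr7:20686507-24840710), with 2.65 per Mb, and the highest a cluster of 28 Vmn1r genes on chromosome 6 (chr6:56906460-58422872), with 25.7 per Mb. Sequence that occurs once in the genome was also scarcer there. Of 32-base words sampled in mm9, 61.7% inside the clusters occurred once, against 84.2% outside, and the share was 12.5% in the chromosome 7 Vmn1r cluster and 69.5% in the chromosome 6 one. The part of sequence copies in the density of regions was not tested.

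**Figure D5:**
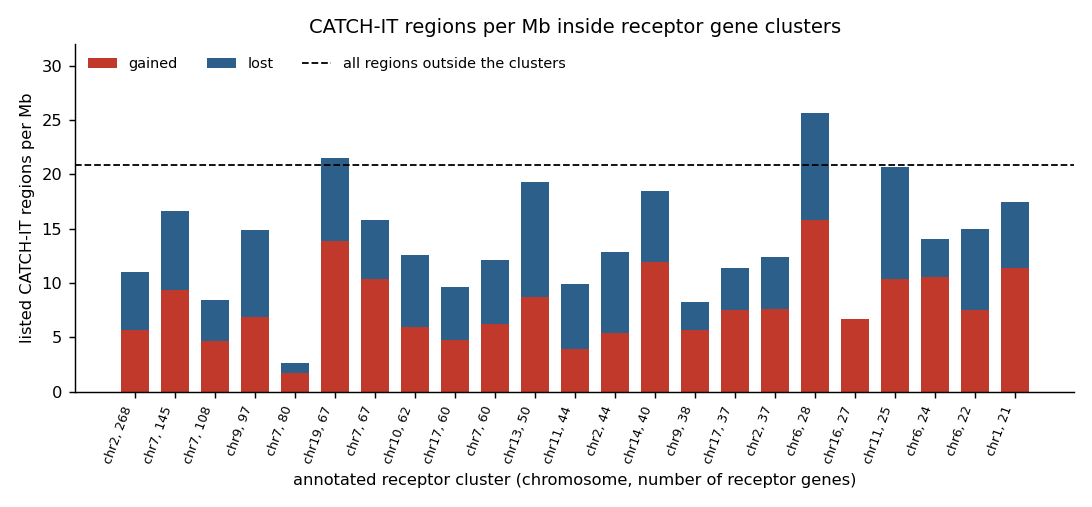
Listed CATCH-IT regions per Mb (y axis), gained stacked under lost, in the 23 annotated clusters with 20 or more receptor genes (x axis, chromosome and number of genes), with a dashed line at 20.9 per Mb for sequence outside the clusters. The clusters run from 2.65 to 25.7 per Mb, and 21 lie under the line.

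The receptor regions themselves differed in how far they can be placed. A median of 100.0% of 32-base words occurred once for Olfr regions, 89.6% for Vmn1r and 78.4% for Vmn2r, against 100.0% for every 50th CATCH-IT region. Fewer than 50% occurred once in 6 of 111 Olfr, 0 of 9 Vmn1r and 9 of 45 Vmn2r regions over all tables (5.4%, 0% and 20.0%), and in 39 of 1056 of the other CATCH-IT regions sampled (3.7%). At the gained regions of Olfr18 (chr9:20130121-20130400) and Vmn2r79 (chr7:94162381-94162760) the shares were 2.4% and 2.9%, so the place the reads came from is uncertain. Olfr1359, among the gained regions with the smallest adjusted p, had 20.6%, with 2 copies of most words.

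Base composition was lower in G and C at receptors. The median GC content was 37.1% in gained and 37.5% in lost receptor regions, against 43.2% and 42.7% in all gained and lost regions. The homeodomain core TAATTA, a motif found in the promoters of many olfactory receptor genes, was present on either strand in the central 200 bases of 14 of 87 gained and 4 of 73 lost receptor regions. This is 16.1% and 5.5%, against 5.9% and 6.4% of all gained and lost regions. The gained matches included Vmn2r regions, at Vmn2r90, Vmn2r92, Vmn2r99, Vmn2r117, Vmn2r16 and Vmn2r27, and the rest were Olfr. Those assigned to Vmn2r99 lay further than 3 kb from any annotated receptor gene. The lost matches were all Olfr (Olfr75-ps1, Olfr643, Olfr149 and Olfr150). The gained and lost shares thus join families, and were not compared within Olfr. The Ebf-type motif CCCNNGGG was present in 1 gained and 0 lost receptor regions (1.1% and 0%), against 3.8% of all regions in each direction. The matches are a description, and the part of base composition in them was not tested.

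No receptor gene was in both kinds of table: 0 of 137 CATCH-IT genes (0%) and 0 of 5 H3.3 genes (0%), and no receptor regions overlapped. Over all genes, matched by symbol, 1606 were in both kinds of table, which is 17.6% of 9128 CATCH-IT genes and 70.2% of 2289 H3.3 genes. With 5 receptor genes in the H3.3 tables, the count of 0 rests on few genes, and it was not tested. The tables come from other cells, culture against hippocampus, and levels were not compared between them. The nearest CATCH-IT receptor region lay 16981 bp from the H3.3 region at Olfr446, at its neighbour Olfr447, which was gained with 18.70, 0.53 and 10.87 in KCl libraries against 0 in all control libraries. From Olfr644 it lay 11401 bp away at Olfr643, which was lost with 0 in all KCl libraries against 3.79, 8.32 and 7.10 in control libraries. For Olfr1104, Olfr1053 and Vmn1r46 the nearest were over 100 kb away, at Olfr1111 (lost), Olfr1061 (lost) and V1ra1 (gained). Olfr1104, itself gained, thus differed in direction from its nearest receptor region. Counting regions of any annotation, the nearest CATCH-IT region to the H3.3 regions lay 4.44 to 33.5 kb away. Its direction was opposite to that of the H3.3 region at Olfr1104, Vmn1r46 and Olfr644, and the same at Olfr446 and Olfr1053.

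Of 47 genes of olfactory signalling and receptor choice, 27 were named for a CATCH-IT region (57.4%). Of other coding genes 41.6% were overlapped by one. The 2 shares are unlike, since a named region can lie outside its gene, and gene length was not matched. The 27 genes had 60 gained and 44 lost regions (57.7% gained, against 57.3% of the table), and 5 of the 104 were at promoters. Omp, the marker protein of mature olfactory neurons, had 1 gained region, at its promoter, with 2.67, 6.92 and 8.15 in KCl libraries against 0 in all control libraries. Cnga4, a subunit of the olfactory cyclic nucleotide-gated channel, had 1 lost region with 0 in all KCl libraries against 2.21, 11.09 and 14.19 in control libraries. The channel gene Trpc2 of vomeronasal neurons had 1 gained and 2 lost regions. The H3.3 tables listed 1 of the 47 genes at 30 min (Cbx5, lost), 1 at 2 hr (Reep1, lost), 3 at 5 hr (Ncam2 higher, Gnao1 and Pde4a lower, with adjusted p of 0.0815, 0.0797 and 0.103 in the authors' deposited table), 5 in NeuN+ nuclei (4 gained, 1 lost) and 2 in NeuN- nuclei (both gained). Reep1, a receptor transport protein, had 2.76, 6.06 and 0 in KCl libraries at 2 hr, against 11.20, 14.16 and 15.96 in control libraries. Kirrel3, an adhesion protein of olfactory axons, was gained in both nuclear fractions. Its NeuN+ region had 18.05 and 17.98 in enriched libraries, against 4.52 and 4.11 in normally housed libraries.

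Other clustered families were counted in the same way. In CATCH-IT, 12 of 16 regions of clustered protocadherins, 4 of 5 of beta-defensins, 3 of 4 of trace amine, taste and formyl peptide receptors and 0 of 2 of keratin-associated proteins were gained, beside 57.3% of the whole table. In the H3.3 tables these families had 0 regions in cultured neurons, 3 in NeuN+ nuclei and 1 in NeuN- nuclei, all gained, beside 71.8% and 70.7% gained in those tables. These counts are too small to set any family apart.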

How the data were processed

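The 7 tables covered 14 groups and 41 of the 66 samples. Input, HA and embryonic nuclei samples were left out. Bowtie 0.12.7, bedtools 2.16.2 and mm9 are named, with no role, per the submitters' processing notes. No source used here names the program that called the regions. Per the file headers, the authors deposited normalised read counts per library, a coverage signal packed into one cell without library names, and values are given in file order. Per the file headers they also deposited the ratio of each group mean to input, a log2 fold change, a p-value and an adjusted p-value, used here as deposited. Normalisation was within each table, and levels were not compared across tables.

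Receptor genes and gene lists were chosen with earlier results of these data known. Named by rule were all receptor regions of the H3.3 tables. From CATCH-IT the rule took the 10 gained, 10 lost and 10 promoter regions with the smallest adjusted p (ties by the difference of means). It also took the genes with most regions, genes in both kinds of table and the 5 largest clusters. Other regions were named outside this rule, among them those at Olfr1265, Olfr558, Vmn2r90, Olfr676 and Olfr1111 and the cluster regions not named for a receptor. Means and SD are over libraries. Replicates are called biological triplicates for cultures and duplicates for in vivo work per the labels' protocols, although NeuN- groups had 3 libraries. Low values in the CATCH-IT and NeuN- tables were whole multiples of one step per library within 0.1, and reads are the value divided by that step. One read was worth 1.34, 0.53 and 2.72 in KCl and 0.32, 1.39 and 1.18 in control libraries of CATCH-IT. Total depth per library is not known from the tables, and no step was found for the enriched NeuN+ libraries.

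The tables were compared with NCBIM37 and GENCODE vM1 before coordinates were used. Of 8871 genes matched by symbol, 99.9% were on the same chromosome and 87.7% had starts within 1 kb. Of the 142 symbols, 131 were current, 10 were older names and 1 had no match in RefSeq, which was used for names alone. Copies of 32-base words were counted on both strands of mm9, at every base of the regions, every 100 bases in the clusters and every 3000 bases outside. Python 3.11.15, pandas 2.3.3, numpy 2.4.6 and matplotlib 3.10.9 were used, and overlap and clustering steps were tested on simulated data. No test was run, because the regions had been called on the same libraries.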

Additional observations from a re-analysis of the deposited data

How the results depend on the processing

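Leaving out symbols that end in -ps and a number gave 156 CATCH-IT receptor regions, 55.1% gained and 75.6% promoter, against 160, 54.4% and 74.4%. Direction relative to input, finite for 16 regions, gave 62.5% gained (63.6% of all such regions). The limit of 0.05 on adjusted p, non-overlapping groups, reads in every library of the higher group, and promoter or gene body labels were met by all receptor regions already. Leaving out 1 library value could not turn a direction, since the groups overlapped in none of the 165 regions. These settings say nothing on stability. Groups of regions numbered 44 at 1 Mb, 60 at 500 kb and 41 at 2 Mb. The 5 hippocampal regions kept their number and directions, with 75% gained relative to input over the 4 with finite ratios. For cultured H3.3 and 0 regions no share could be given. No paired analysis was possible because the packed values carry no replicate numbers and no test was run.

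Alternatives chosen after seeing the data moved more. Regions overlapping an annotated receptor gene numbered 70 (57.1% gained, 61.4% promoter). Regions with at least 95% of 32-base words found once numbered 84 (54.8% gained, 86.9% promoter). Regions whose highest library was not at 6 or 12 reads numbered 61 (90.2% gained, 70.5% promoter), and the cause was not tested. Without Vmn2r99 there were 150 (53.3% gained, 79.3% promoter). Matching older symbols left 0 genes in both kinds of table. Depth limits every value: gained and lost regions held a median of 18 and 21 reads over 3 libraries.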
